A study of Drosophila melanogaster with 10 samples.

Results

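The troponin and tropomyosin genes of the fly were followed in RNA from adult male thoraces. They were taken by gene symbol: up, wupA, TpnC4, TpnC41C, TpnC47D, TpnC73F, TpnC25D, Tm1 and Tm2, 9 of the 17563 genes in the files. Esg>yki[S3A] flies, called yki flies from here on, were sampled at days 2, 8, 14, 20, 26, 32 and 38 and control flies at days 2, 14 and 38. All flies, controls included, carried esg-Gal4 with the tub-Gal80ts repressor and UAS-GFP, and the yki flies also carried UAS-yki-act, an activated form of the transcriptional co-activator Yorkie, where the controls carried none. Flies developed at 18 °C, spent 14 days of adult life at 29 °C, where the driver acts in progenitor cells of the gut and the transgene gives a gut tumor, and were then returned to 18 °C, where Gal80ts represses the driver. The driver is one of gut progenitors and not of muscle. The day 20 to day 38 libraries differ from the earlier ones in age, in temperature and, in yki flies, in whether the transgene is driven. These cannot be told apart. Each condition was 1 library from 8 to 10 pooled thoraces, 7 from yki flies and 3 from control flies.

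Troponin and tropomyosin form the calcium switch of the thin filament. Tropomyosin lies along actin and blocks myosin, troponin T anchors the complex to tropomyosin, troponin I inhibits contraction, and troponin C binds calcium and releases the block. Most of the fly thorax is indirect flight muscle, a fibrillar muscle driven by stretch activation, and the remainder includes the tubular muscles that move the legs and power the jump. The gene up encodes troponin T and wupA troponin I, each spliced into forms for flight muscle and for tubular muscle. TpnC4 is the main troponin C of flight muscle, TpnC41C the form of jump muscle and the minor form of flight muscle, and TpnC47D and TpnC73F are forms of larval and adult tubular muscle. TpnC25D is a further troponin C gene. Tm1 encodes muscle, flight-muscle-specific and cytoskeletal tropomyosins, and Tm2 a muscle tropomyosin that flight muscle requires.

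In the Release 6 assembly, up (FBgn0004169) lies at X:13593474-13602578 and wupA (FBgn0283471) at X:18105568-18116922, both on the minus strand. TpnC4 (FBgn0033027, 2R:5503437-5507866), TpnC41C (FBgn0013348, 2R:5065237-5070210) and TpnC47D (FBgn0010423, 2R:11273845-11275286) are on the minus strand of 2R. TpnC73F (FBgn0010424) is at 3L:17046063-17048390 and TpnC25D (FBgn0031692) at 2L:5216701-5219053, both on the plus strand. Tm1 (FBgn0003721, 3R:15278220-15308779) and Tm2 (FBgn0004117, 3R:15310193-15315197) are neighbors on the plus strand of 3R. Values are for whole genes, so the muscle-specific splice forms of up, wupA and Tm1 are merged. Exons of TpnC25D share 54 bases with tkv and exons of Tm1 share 280 bases with l(3)neo43, each on the other strand. Whether the counting used strand is not stated, so reads in those stretches cannot be assigned with certainty. The other 7 genes overlap no other gene's exons.

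The libraries held 14615109 to 38208955 reads on genes, of which the 9 genes took 0.251% to 1.19%. Mitochondrial genes took 46.9% of the reads in yki thoraces at day 14 and 24.3% to 32.5% in the other 9 libraries. Levels are RPKM, reads scaled by exon length and by the total reads on genes, and values that rest on the day 14 yki library move with the total used. All 5 muscle markers (Mhc, Mlc2, sls, bt and Mef2) had reads in every library, and their summed level was 2471 to 4357 RPKM in yki thoraces and 2944 to 5622 RPKM in control thoraces. With 1 library a condition, no spread between replicates can be set against a difference, and the exact 95% intervals printed in parentheses after log2 ratios cover counting error only.

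Of the 9 genes, 7 were above 20 RPKM in all 10 libraries, and TpnC47D and TpnC73F stayed under 4 RPKM. The level of most of them was highest at day 2: this held for 7 of 9 genes among the 7 yki libraries (13.2% of all 9080 genes reaching 2 RPKM) and for 8 of 9 among the 3 control libraries (18.7% of all genes). The exceptions were TpnC73F in both genotypes and TpnC25D in yki thoraces, where day 32 was highest. Which genes were exceptions in yki thoraces moved with the total used. With edgeR's TMM factors TpnC25D was highest at day 2, at 124 RPKM against 103 RPKM at day 32. With nuclear protein-coding reads as the total wupA was highest at day 14, at 964 RPKM against 787 RPKM at day 2.

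**Figure D1:**
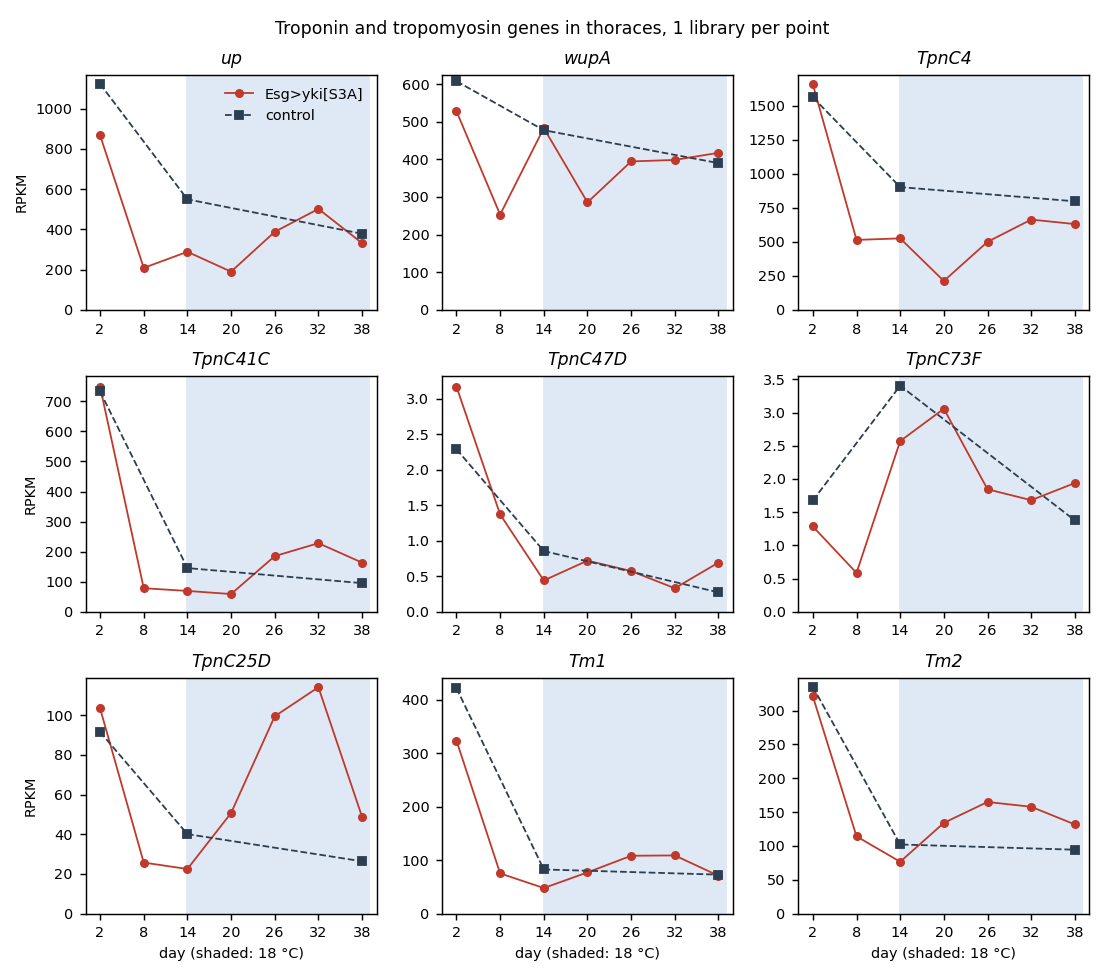
RPKM (vertical axis) of each troponin and tropomyosin gene against day (horizontal axis), 1 library per point, with Esg>yki[S3A] thoraces as red circles, control thoraces as dark squares and the days at 18 °C shaded. Panels of 7 genes start at their highest Esg>yki[S3A] value at day 2, while TpnC25D peaks at 114 RPKM at day 32 and TpnC73F at 3.06 RPKM at day 20.

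The RNAs of troponin T and troponin I, whose proteins work in the same complex, followed different courses. The yki thoraces held 868, 209, 289, 190, 388, 502 and 332 RPKM of up at days 2, 8, 14, 20, 26, 32 and 38, and control thoraces held 1123, 549 and 379 RPKM at days 2, 14 and 38. Day 2 was the highest in both genotypes, and the lowest library of all was yki at day 20, with a 5.90-fold range over the 10 libraries. For wupA the values were 528, 253, 483, 286, 394, 398 and 417 RPKM in yki thoraces and 607, 477 and 390 RPKM in control thoraces on the same days. This was the narrowest range of the 9 genes, 2.40-fold, and only the day 8 and day 20 yki libraries lay under the control values.

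Among the troponin C genes the flight muscle form was the most abundant per length in every library. TpnC4 had 1657, 515, 526, 213, 501, 664 and 631 RPKM in yki thoraces at days 2, 8, 14, 20, 26, 32 and 38, and 1562, 902 and 798 RPKM in control thoraces at days 2, 14 and 38. All 6 yki libraries after day 2 lay below all 3 control libraries, and the day 14 and day 8 libraries differed by less than their counting interval. TpnC41C, the jump muscle form, had 749, 78.3, 69.3, 58.9, 185, 228 and 164 RPKM in yki thoraces and 733, 145 and 95.2 RPKM in control thoraces. It had the widest range of the 9 genes, 12.7-fold, and from day 26 its yki levels were above both later control levels.

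TpnC25D had 103, 25.7, 22.5, 50.7, 99.5, 114 and 48.8 RPKM in yki thoraces at days 2, 8, 14, 20, 26, 32 and 38, and 91.6, 40.1 and 26.3 RPKM in control thoraces at days 2, 14 and 38. With all reads on genes as the total it was back at its day 2 level in yki thoraces by day 26. The day 2 and day 26 libraries lay within their counting interval. With TMM factors it was still lower at day 26, at 95.2 RPKM against 124 RPKM at day 2. By day 38 it was lower again.

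The tubular muscle forms were close to the limit of what the depth can resolve. TpnC47D rested on 4 to 94 reads a library, and had 3.17, 1.37, 0.440, 0.719, 0.573, 0.331 and 0.692 RPKM in yki thoraces and 2.29, 0.855 and 0.273 RPKM in control thoraces. TpnC73F rested on 16 to 112 reads and had 1.28, 0.585, 2.57, 3.06, 1.84, 1.68 and 1.94 RPKM in yki thoraces and 1.68, 3.41 and 1.38 RPKM in control thoraces. TpnC47D was highest at day 2 in both genotypes, and TpnC73F had more at day 14 than at day 2 in each genotype. For each of these genes, 8 of the 9 pairs of libraries that are neighbors in order of level differed by less than their counting interval.

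Both tropomyosin genes were well below their day 2 level in every later library. Tm1 had 324, 75.1, 47.7, 77.0, 108, 109 and 70.7 RPKM in yki thoraces at days 2, 8, 14, 20, 26, 32 and 38, and 422, 82.5 and 72.8 RPKM in control thoraces at days 2, 14 and 38. Tm2 had 321, 114, 76.5, 134, 165, 158 and 132 RPKM in yki thoraces and 335, 102 and 94.3 RPKM in control thoraces. Day 14 was the lowest of the yki libraries for both genes. Tm2 was above both later control levels in yki thoraces at days 8, 20, 26, 32 and 38, and Tm1 was above them at days 26 and 32.

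The change over 14 days at 29 °C was compared first, with a gene counted when its log2 ratio passed 1.3 and its larger level reached 2 RPKM. In yki thoraces 7 of the 9 genes were lower at day 14 than at day 2 past this cut-off (13.7% of all 8433 genes, and 21.2% in either direction), and their log2 ratios had a median of -2.07 over the 9 genes, against -0.02 over all genes. In control thoraces 4 of 9 genes were lower past it (3.22% of 8327 genes), with a median of -1.19 against 0.34 over all genes. The 4 control genes were TpnC41C, TpnC47D, Tm1 and Tm2, and in yki thoraces these were joined by up, TpnC4 and TpnC25D. With edgeR's TMM factors the counts were 7 in yki and 6 in control thoraces. With nuclear protein-coding reads as the total the yki count was 6, made of TpnC41C, TpnC47D, TpnC25D, Tm1 and Tm2 lower and TpnC73F higher.

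TpnC41C was the most reduced member in yki thoraces, with 69.3 RPKM at day 14 against 749 RPKM at day 2, a log2 ratio of -3.43 (95% interval -3.48 to -3.39). In control thoraces the ratio was -2.33 (-2.37 to -2.30), and Tm1 was lowest at -2.35. The change in yki thoraces exceeded that in control thoraces by -1.10 (-1.16 to -1.04) for TpnC41C. This value is the same for any fixed length of the gene, but not for any library totals. The decline of TpnC4 was -1.66 (-1.68 to -1.63) in yki thoraces and -0.79 (-0.82 to -0.77) in control thoraces. The troponin T gene up gave -1.59 (-1.61 to -1.57) in yki and -1.03 (-1.05 to -1.01) in control thoraces. For these 3 genes the gap between genotypes was widest with all reads on genes as the total. Nuclear protein-coding reads moved each log2 ratio by 0.42 in yki and 0.07 in control thoraces. TMM factors moved it by 0.01 in yki and -0.35 in control thoraces, and the median of ratios by -0.02 and -0.35. Under 4 totals up ran from -1.60 to -1.17 in yki and from -1.39 to -0.96 in control thoraces. TpnC4 ran from -1.67 to -1.24 in yki and from -1.15 to -0.72 in control thoraces. TpnC41C ran from -3.45 to -3.01 in yki and from -2.69 to -2.27 in control thoraces.

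Not every member went down. The tubular form TpnC73F was about 2-fold higher at day 14 in both genotypes, against day 2, by 1.0 (0.48 to 1.53) in yki and 1.02 (0.54 to 1.53) in control thoraces on the log2 scale. The troponin I gene wupA was nearly level in yki thoraces, at -0.13 (-0.15 to -0.11), and this turned to 0.29 with nuclear protein-coding reads as the total. In control thoraces wupA was at -0.35 (-0.37 to -0.33).

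Most of the decline in yki thoraces was already present at day 8. Of the 8 genes with 2 RPKM, 8 were lower at day 8 than at day 2 beyond their counting intervals (23.3% of 8552 genes), by a median of -1.85 on the log2 scale, and 6 of 8 passed the cut-off (5.38%). With TMM factors all 8 passed. Between day 8 and day 14 Tm1 and Tm2 went down further, by -0.65 and -0.58, TpnC4 stayed at 0.03 (-0.0046 to 0.067), or at up to 0.41 under other totals, and wupA and up were higher by 0.93 and 0.47. TpnC73F was higher by 2.14 (1.36 to 3.01) over those 6 days.

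**Figure D2:**
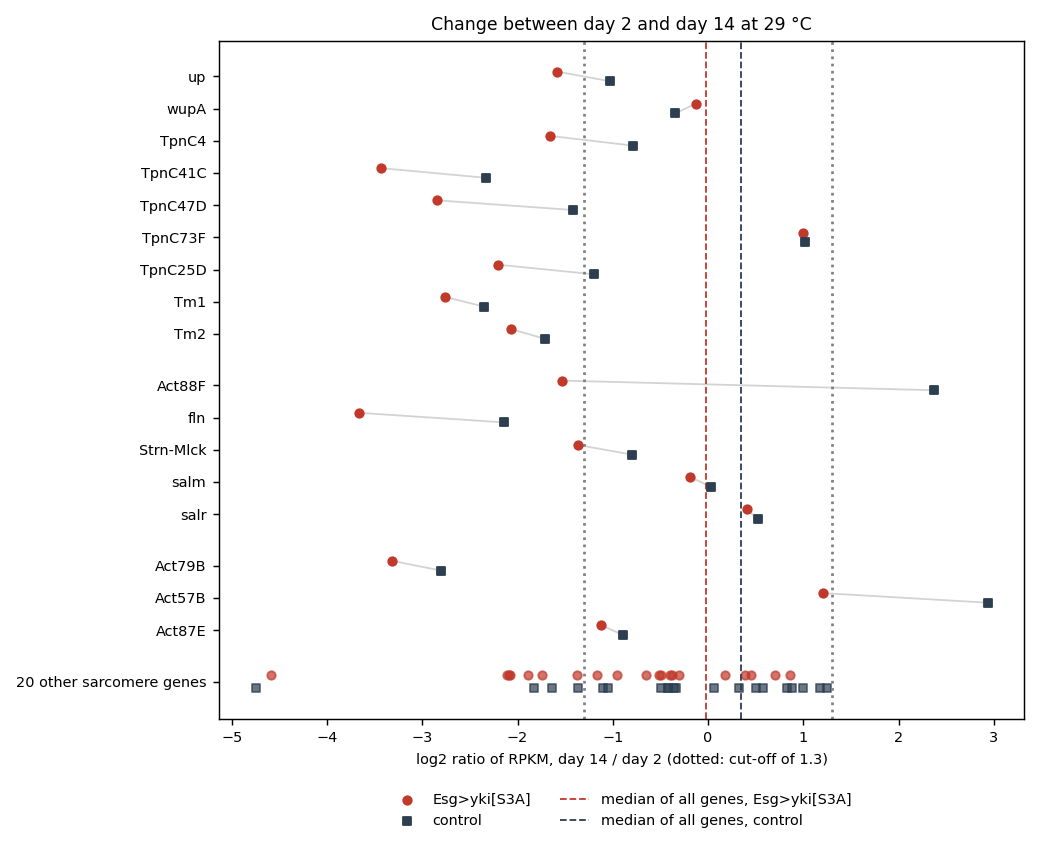
Log2 ratio of RPKM at day 14 over day 2 (horizontal axis) for the 9 troponin and tropomyosin genes, 5 flight muscle genes, 3 actin genes and 20 other sarcomere genes (rows), with Esg>yki[S3A] thoraces as red circles above control thoraces as dark squares. 8 of the 9 genes lie left of 0 in both genotypes, and TpnC73F lies near 1 in both.

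Flies of both genotypes were sampled on 3 shared days, which allows yki and control thoraces to be compared at a cut-off of 1 on the log2 scale. At day 2 no member passed it, 0 of the 8 genes with 2 RPKM (4.63% of 8093 genes), and ratios ran between -0.38 for Tm1 and 0.47 for TpnC47D. At day 14, 1 of 8 passed, in the lower direction (17.0% of 8368 genes). This was TpnC41C, at 69.3 RPKM in yki and 145 RPKM in control thoraces, a ratio of -1.07 (-1.12 to -1.015). At day 38 it was 0 of 7 (5.32% of 8551 genes).

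The day 14 ratios depend on the library total. All genes together had a median of -0.36, and the members with 2 RPKM a median of -0.78. TMM factors, DESeq2's median of ratios and nuclear protein-coding reads raised every ratio by 0.34, 0.30 and 0.44, and under each of them 0 members passed the cut-off. Under all 4 totals up, TpnC4, TpnC41C, TpnC25D and Tm1 were lower in yki thoraces, while Tm2 and TpnC73F were lower under 3 and higher under nuclear protein-coding reads. TpnC47D, at 11 and 21 reads, could not be resolved. The ratio of up was -0.93 (-0.95 to -0.90), with -0.48 as the nearest to 0, and that of TpnC4 was -0.78 (-0.81 to -0.75), with -0.34 as the nearest to 0. The wupA gene gave 0.02 (-0.006 to 0.04), and 0.46 as its highest. On that day, with all reads on genes as the total, the muscle markers summed to 2970 RPKM in yki and 4516 RPKM in control thoraces. Mlc2 alone gave 2512 RPKM in yki and 3354.5 RPKM in control thoraces. Its ratio was -0.42, and 0.03 with nuclear protein-coding reads. Mhc, sls and bt were lower in yki thoraces under all 4 totals. The remaining marker, Mef2, entered only the sum, and its own ratio is not given. The fat body markers summed to 728 RPKM in yki and 2033 RPKM in control thoraces, with the same total as the muscle sums.

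At day 38, when the medians of all genes under the 4 totals were between -0.06 and -0.01, the genes split. TpnC25D, TpnC41C and Tm2 were higher in yki thoraces, by 0.89 (0.74 to 1.04), 0.78 (0.72 to 0.85) and 0.48 (0.42 to 0.54). TpnC4 and up were lower, by -0.34 (-0.38 to -0.30) and -0.19 (-0.22 to -0.16). Tm1 was at -0.04 (-0.08 to -0.005), a direction that changed with the total, and TpnC47D, at 8 reads in yki and 4 reads in control thoraces, could not be resolved.

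**Figure D3:**
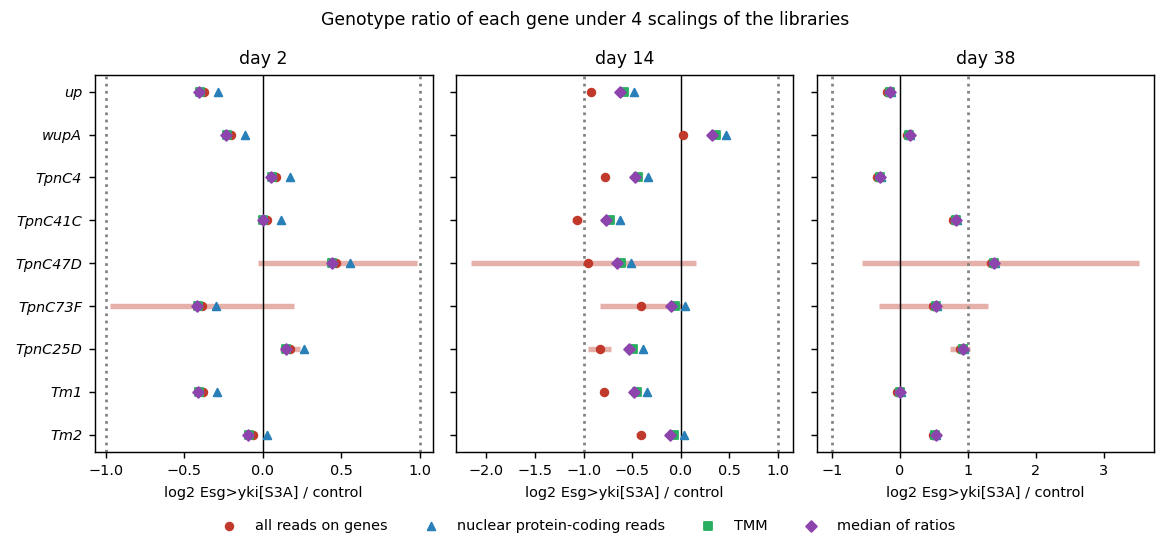
Log2 ratio of Esg>yki[S3A] over control (horizontal axis) for each gene (rows) at days 2, 14 and 38, 1 library on each side, with the 4 symbols giving 4 library totals, bars the 95% counting interval for all reads on genes, and dotted lines the cut-off of 1. At day 14 the circle of TpnC41C lies at -1.07 and its other symbols between -0.77 and -0.63.

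A test of genotype was possible only with the 3 shared days taken as the replicates of each genotype, in an edgeR quasi-likelihood fit with day as a term. It measures a difference that is the same on all 3 days. By edgeR 0 of 9 members had a Benjamini-Hochberg adjusted p under 0.05 (1 of all 10459 genes, 0.00956%), and 0 of 9 an unadjusted p under it (854 of all genes). The largest estimate among members was that of up, with a log2 fold change of -0.38 ± 0.18 (SE) and an adjusted p of 0.632 in edgeR. DESeq2's Wald test called 0 of 9 members and 155 of 11528 genes. In that test 1 of 9 members, up, had an unadjusted p under 0.05, as did 821 of all genes. Without day 14 edgeR called 95 of 10356 genes and 0 members. There 1 of 9 members, TpnC25D, had an unadjusted p under 0.05 in edgeR, as did 1136 of the 10356 genes. The estimates of TpnC41C, TpnC25D and Tm2 were 0.03 ± 0.32, 0.19 ± 0.29 and 0.11 ± 0.20, and each was negative without day 38, where these genes were higher in yki thoraces.

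Ratios between genes within a library do not depend on its total, and they show which members moved apart. TpnC4 made up 65.9%, 82.9%, 84.7%, 65.2%, 63.6%, 65.9% and 74.6% of the summed troponin C RPKM in yki thoraces at days 2, 8, 14, 20, 26, 32 and 38, and 65.3%, 82.6% and 86.6% in control thoraces at days 2, 14 and 38. The flight muscle share was higher at day 14 than at day 2 in each genotype, and at day 38 the share was below that of day 14 in yki thoraces and above it in control thoraces. TpnC41C took 29.8%, 12.6%, 11.2%, 18.1%, 23.5%, 22.6% and 19.3% in yki thoraces and 30.7%, 13.3% and 10.3% in control thoraces. TpnC25D took 3.62% to 4.14% in yki thoraces until day 14, then 15.5%, 12.6%, 11.3% and 5.77% at days 20, 26, 32 and 38, and 3.83%, 3.67% and 2.86% in control thoraces. TpnC47D and TpnC73F together never reached 1.2% of the troponin C level. The shares rest on merged exon lengths. With shortest transcripts TpnC4 took 47.9% to 74.4% in yki and 48.9% to 77.0% in control thoraces, and TpnC41C 19.7% to 45.0% in yki and 18.5% to 46.1% in control thoraces.

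**Figure D4:**
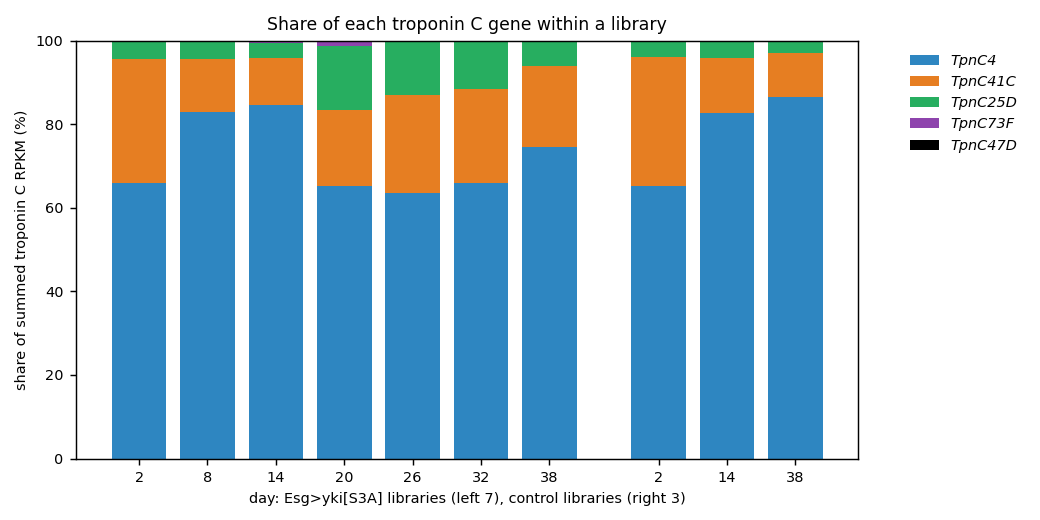
Share of the summed troponin C RPKM (vertical axis, percent) taken by each of the 5 genes in each library, with Esg>yki[S3A] days on the left and control days on the right. TpnC4 fills 63.6% to 84.7% of the Esg>yki[S3A] bars, and TpnC25D widens to 15.5% at day 20.

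The jump muscle form against the flight muscle form, TpnC41C over TpnC4, stood at a log2 ratio of -1.15, -2.72, -2.92, -1.85, -1.44, -1.54 and -1.95 in yki thoraces at days 2, 8, 14, 20, 26, 32 and 38, and at -1.09, -2.63 and -3.07 in control thoraces at days 2, 14 and 38. Both genotypes therefore lost TpnC41C relative to TpnC4 by day 14, and the yki libraries of days 20 to 38 lay nearer to day 2 again, which the day 38 control library did not. The genotypes differed by -0.05 (-0.08 to -0.03) at day 2, -0.29 (-0.35 to -0.23) at day 14 and 1.12 (1.04 to 1.20) at day 38, the last a 2.17-fold higher ratio in yki thoraces. TpnC41C has transcripts of 1880 and 821 bases, so the level of this ratio depends on the length used. Its difference between libraries is the same for any fixed length, but transcript use in each library was not measured.

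TpnC25D over TpnC4 had a log2 ratio of -4.00, -4.32, -4.55, -2.07, -2.33, -2.54 and -3.69 in yki thoraces and -4.09, -4.49 and -4.92 in control thoraces on the same days. It was 5.57-fold higher at day 20 than at day 14 in yki thoraces, a difference of 2.48 (2.35 to 2.61) on the log2 scale. At day 38 the genotypes differed by 1.23 (1.07 to 1.38), and at day 14 by -0.06 (-0.18 to 0.07). This ratio was added after the values were seen.

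The tubular forms TpnC47D and TpnC73F together were 56.4-fold below TpnC4 in yki thoraces at day 20 and 175-fold to 372-fold below it in the other yki libraries. In control thoraces they were 394-fold, 212-fold and 484-fold below it at days 2, 14 and 38. Day 20, with 87 reads of these forms, thus had their highest ratio to TpnC4, and it was also the library with the lowest TpnC4 level. The forms themselves were not at their highest there. TpnC47D was at 0.719 RPKM, against 3.17 RPKM in yki thoraces at day 2. TpnC73F was at 3.06 RPKM, against 3.41 RPKM in control thoraces at day 14. Between genotypes the log2 ratio of these forms to TpnC4 differed by 0.08 (-0.28 to 0.45) at day 2, 0.28 (-0.10 to 0.66) at day 14 and 1.01 (0.33 to 1.70) at day 38.

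Troponin T over troponin I, up over wupA, had a log2 ratio of 0.72, -0.28, -0.74, -0.59, -0.02, 0.33 and -0.33 in yki thoraces at days 2, 8, 14, 20, 26, 32 and 38, and 0.89, 0.20 and -0.04 in control thoraces at days 2, 14 and 38. It was lower in yki thoraces on all 3 shared days, by -0.17 (-0.19 to -0.14) at day 2, -0.94 (-0.98 to -0.91) at day 14 and -0.29 (-0.34 to -0.24) at day 38. At day 14 the RNA of up relative to that of wupA was thus 1.93-fold lower in yki thoraces than in control thoraces. Protein was not measured here.

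Tm2 over Tm1 had a log2 ratio of -0.01, 0.60, 0.68, 0.80, 0.61, 0.54 and 0.90 in yki thoraces and -0.33, 0.31 and 0.37 in control thoraces. It was higher in yki thoraces on all 3 shared days, by 0.32 (0.29 to 0.35), 0.37 (0.32 to 0.43) and 0.52 (0.45 to 0.59). The merged exons of Tm1 span 9804 bases and its longest transcript 3054 bases, and with the longest transcripts as lengths the day 14 yki ratio was -0.60. Which of the pair was the more abundant per length therefore cannot be read from these values, whereas differences between libraries hold for any fixed length.

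**Figure D5:**
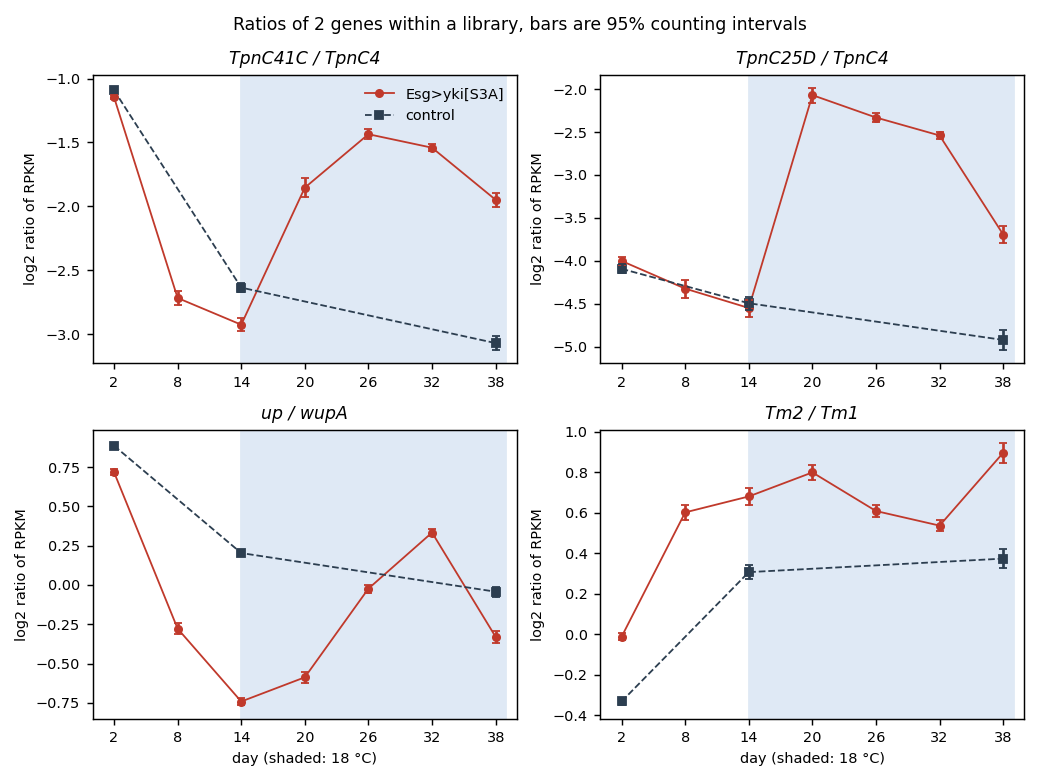
Log2 ratio of RPKM of gene pairs within a library (vertical axis) against day (horizontal axis), with Esg>yki[S3A] thoraces as red circles, control thoraces as dark squares, bars the 95% counting intervals and the days at 18 °C shaded. At day 38 TpnC41C over TpnC4 stands at -1.95 in Esg>yki[S3A] thoraces, against -3.07 in control thoraces.

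After the return to 18 °C the genotypes were compared over day 38 against day 14. In yki thoraces 0 of 8 members passed 1.3 (17.7% of 8566 genes, 14.4% in the higher direction), with a median of 0.42 against 0.35 over all genes. TpnC41C at 1.24 (1.18 to 1.3) and TpnC25D at 1.12 (0.98 to 1.25) were the highest. The other 3 totals lowered all these ratios by 0.34 to 0.46, to no less than 0.78 for TpnC41C and 0.65 for TpnC25D, and up and TpnC4, at 0.20 and 0.26, were then below 0. With day 32 in place of day 38, 2 of 8 members passed (15.2% of 8449 genes in the higher direction), TpnC41C at 1.72 and TpnC25D at 2.35. TpnC41C was at 1.295 with TMM factors and 1.175 with nuclear protein-coding reads, which leaves 1 of 8 members. Over all genes 632 of 8489 then passed in the higher direction with TMM factors, and 556 of 9084 with nuclear protein-coding reads. In control thoraces all 8 genes with 2 RPKM were lower at day 38 than at day 14 beyond their counting intervals (34.8% of 8623 genes), and 1 of 8 passed the cut-off (4.79% in the lower direction), TpnC73F at -1.31 (-1.97 to -0.69), with 27 reads at day 38 and 112 at day 14. The pattern of 6 of the 8 members with 2 RPKM, higher at day 38 in yki and lower in control thoraces, was met by 19.9% of 8878 genes.

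The course at 18 °C was not steady. TpnC4, wupA and up were lower in yki thoraces at day 20 than at day 14, by -1.3, -0.76 and -0.60 on the log2 scale, while TpnC25D, Tm2 and Tm1 were higher by 1.17, 0.81 and 0.69. Under the other totals these directions held, with Tm1 as low as 0.24. From day 20 to day 26, 7 of 8 genes with 2 RPKM were higher beyond their counting intervals (25.4% of 8525 genes), TpnC41C by 1.65 and TpnC4 by 1.23. From day 32 to day 38, 6 of 7 were lower (41.8% of 8543 genes), TpnC25D by -1.23 and Tm1 by -0.62, and TpnC4 by -0.07, which turned to 0.01 under another total. At day 38 the levels of all 8 genes with 2 RPKM were still below those of day 2 beyond the counting interval in both genotypes (26.5% of 8684 genes in yki and 23.7% of 8529 genes in control thoraces), with a median over the 9 genes of -1.39 in yki and -1.80 in control thoraces.

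The ranges of the 4 yki libraries at 18 °C and the 3 at 29 °C overlapped for all 9 genes, so 0 of 9 were apart (18.5% of 9080 genes). Without the day 2 library, a choice made after the ranges were seen, TpnC25D (48.8 to 114 RPKM at 18 °C, 22.5 to 25.7 RPKM at days 8 and 14) and Tm2 (132 to 165 RPKM at 18 °C, 76.5 to 114 RPKM at days 8 and 14) were apart and higher at 18 °C, 2 of 9 (28.9% of genes, 21.6% in this direction).

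Markers of other tissues also differed between libraries. The summed fat body markers, 7 of 8 found in the files by symbol, were 728 to 1637 RPKM in yki thoraces, lowest at day 14 and highest at day 26, and 724 to 2033 RPKM in control thoraces, lowest at day 2 and highest at day 14. The 9 gut markers summed to 4.22 to 84.1 RPKM in yki and 19.6 to 29.4 RPKM in control thoraces, with epsilonTry at 0 in all libraries. In both genotypes this sum was lowest at day 14 and highest at day 2, the library that later days are compared with. The 5 neuron markers summed to 44.1 to 82.5 RPKM in yki thoraces, highest at day 14, and 43.1 to 65.8 RPKM in control thoraces. The 4 hemocyte markers summed to 61.1 to 139 RPKM in yki and 47.7 to 76.0 RPKM in control thoraces. Their part in the levels above was not tested, and in whole thoraces fewer muscle cells and less RNA per cell cannot be told apart.

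Other muscle genes did not all follow the troponins. Act88F, the flight muscle actin, had 563, 1876, 194, 286, 664, 1230 and 1822 RPKM in yki thoraces at days 2, 8, 14, 20, 26, 32 and 38, and 588, 3048 and 684 RPKM in control thoraces at days 2, 14 and 38. Against day 2 it was lower at day 14 in yki thoraces, by -1.54, and higher in control thoraces, by 2.37. The flight muscle gene fln, which encodes flightin, a thick filament protein, had 828, 82.8, 65.2, 18.0, 78.1, 74.9 and 34.8 RPKM in yki and 1419, 322 and 85.7 RPKM in control thoraces, lower at day 14 in both. Of the 5 flight muscle genes (Act88F, fln, Strn-Mlck, salm and salr), 3 were lower past 1.3 at day 14 than at day 2 in yki thoraces (13.7% of all genes) and 1 in control thoraces (3.22% of all genes). With nuclear protein-coding reads as the total it was 1 in yki and 1 in control thoraces.

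Among the actins of tubular and body wall muscle, Act79B had 1188, 217, 119, 183, 300, 277 and 176 RPKM in yki and 1642, 235 and 96.8 RPKM in control thoraces, and Act57B was higher at day 14 than at day 2, by 1.20 in yki and 2.94 in control thoraces. The muscle myosin heavy chain gene Mhc had 711, 391, 168, 272, 603, 654 and 644 RPKM in yki thoraces and 773, 610 and 446 RPKM in control thoraces. Of 20 other sarcomere genes with 2 RPKM, 7 were lower past 1.3 at day 14 in yki and 4 in control thoraces (7 and 6 with TMM factors), with medians of -0.58 and -0.35 that lay above those of the troponins and tropomyosins. Zasp67 was the lowest of them in both, at -4.59 in yki and -4.75 in control thoraces. The highest was flr in yki thoraces, at 0.86, and cpb in control thoraces, at 1.25.

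Between genotypes at day 14, 5 of 19 other sarcomere genes were lower past 1 (17.0% of all genes), or 3 with TMM factors and 2 with nuclear protein-coding reads, with Mhc lowest at -1.86 and Mf highest at 0.07, and 2 of the 5 flight muscle genes, Act88F at -3.97 and fln at -2.31. At day 38 the other sarcomere genes ran between -0.46 for Unc-89 and 0.53 for Mhc, and none of them passed the cut-off. For day 38 against day 14, Unc-89 was the highest of them in both genotypes, at 2.44 in yki and 1.32 in control thoraces, Zasp66 the lowest in yki thoraces at -0.56 and tsr in control thoraces at -1.33. Lasp, also on the list, was listed at 0 in all libraries, and its exons lie within those of CG43954 on the same strand.

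Genes with the most similar course were found among 4571 genes averaging at least 10 RPKM, by the root mean square difference of log2(RPKM + 1) around each gene's own mean over the 10 libraries. NP15.6 and porin were nearest to Tm1, both at 0.11, followed by Cyt-c-p at 0.19. For TpnC41C the nearest were ATPsynbeta at 0.38, Cyt-c-p at 0.39 and COX5A at 0.39. For wupA they were CG7506 at 0.21, Mlc2 at 0.22 and CG17734 at 0.24, and for up Mlp84B at 0.28, ScsbetaA at 0.28 and UQCR-11 at 0.29. TpnC4 was nearest to CG10802 at 0.30, ScsbetaA at 0.36 and ND-15 at 0.38, TpnC25D to SmydA-4 at 0.37, CG10550 at 0.42 and Ssk at 0.43, and Tm2 to CG14777 at 0.20, CG7772 at 0.22 and CG17029 at 0.23. TpnC47D was nearest to CG11099 at 0.24, CG5346 at 0.24 and Scp2 at 0.26, and TpnC73F to Fkbp12 at 0.19, grnd at 0.24 and CG41520 at 0.26, both measures being flattened by the added 1 RPKM. Among the 9 genes the closest pair was up and TpnC4, at 0.34, followed by Tm1 and Tm2, at 0.36, and the most distant was TpnC41C and TpnC73F, at 1.38.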

How the data were processed

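RNA from pooled thoraces was depleted of rRNA and sequenced on an Illumina NextSeq, each library divided into 4 pools, and the authors aligned reads with STAR to the FlyBase release 6 genome. The deposited values are estimated counts for each gene in steps of 0.25, made by the authors. Assuming that a value averages 4 pools, it was multiplied by 4 to give reads. Counting program and strand use are not given in the sources used here. RPKM used the total reads on genes and merged exon lengths from the Ensembl release 115 annotation; 99.7% of identifiers matched and 57 genes have no length. Groups came from the sample labels. Intervals on ratios are 95% Clopper-Pearson intervals. The PCR-amplified reads are not independent molecules, so intervals cover counting error only. The genotype test used edgeR 4.0.16 (quasi-likelihood, day and genotype terms) on whole-number reads, with DESeq2 1.42.0 as an alternative. The counting rules and the test were tested on simulated data. For the test these held no effect of day and a genotype change equal on all days. They therefore do not show how the test does on these libraries. The named genes are the 9 members, their 3 nearest patterns, and from lists of flight muscle, actin and other sarcomere genes Act88F, fln, Act79B, Mhc and the highest and lowest gene of a comparison. The members and lists were chosen with earlier results of these data known. Alternatives were other library totals, 1 RPKM added, no minimum level, other cut-offs, other lengths, neighboring days and leaving out each day. Shortest transcripts, and other totals for the day 32 count and for the lists of other muscle genes, were chosen after seeing the data.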

Additional observations from a re-analysis of the deposited data

Results flagged for a closer look

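For 6 of the 8 genes with 2 RPKM the change of day 38 against day 14 ran in opposite directions in the genotypes. Each point was 1 library, and the difference was not tested. TpnC47D, under 2 RPKM on those days, also did so, at 0.65 in yki and -1.65 in control thoraces, on 4 to 21 reads. On the log2 scale TpnC41C was at 1.24 in yki and -0.61 in control thoraces, and TpnC25D at 1.12 in yki and -0.60 in control thoraces. Tm2 was at 0.78 in yki and -0.11 in control thoraces, and Tm1 at 0.57 in yki and -0.18 in control thoraces. TpnC4 was at 0.26 in yki and -0.18 in control thoraces, and up at 0.20 in yki and -0.54 in control thoraces, but with TMM factors, the median of ratios or nuclear protein-coding reads both were lower at day 38 in yki thoraces too. TpnC41C, TpnC25D, Tm1 and Tm2 kept their direction under all 4 totals. Among all 8878 genes, 19.9% were higher at day 38 in yki and lower in control thoraces.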

How the results depend on the processing

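No paired analysis was possible by replicate number because each condition is 1 library, and the genotype test matched libraries by day. Counts of members past the cut-off moved as follows. Between genotypes at day 14, 1 became 0 with TMM factors, with the median of ratios, with nuclear protein-coding reads and with a cut-off of 1.3, and at day 38 0 became 1 with no minimum level. For day 14 against day 2 in control thoraces 4 became 7 at a cut-off of 1. For day 38 against day 14, 0 became 2 in yki thoraces at a cut-off of 1 and with day 32 (1 with TMM factors or nuclear protein-coding reads), and in control thoraces 1 became 0 with 1 RPKM added and 2 with no minimum. Without day 2, the ranges of 2 genes at 18 °C were apart from those at 29 °C, an alternative added after seeing the data. Over all genes the edgeR genotype test called 1 gene, DESeq2's Wald test 155, edgeR with no filter 14 and with no day term 0, and leaving out a day gave 0 to 95, the latter without day 14. Genotype estimates that changed sign were, over the fits that left out a day, wupA (-0.041 to 0.25, negative without day 14), TpnC41C (-0.39 to 0.41), TpnC47D (-0.029 to 0.65), TpnC25D (-0.19 to 0.53) and Tm2 (-0.11 to 0.22), all 4 negative without day 38, and TpnC73F (-0.26 to 0.20), the last also positive at 0.0019 with no filter and 0.0057 with nuclear genes only. In the day 14 yki library, by construction of the lengths, TpnC41C over TpnC4 was -1.78 from reads alone and -1.92 with shortest transcripts, Tm2 over Tm1 -0.60 with longest transcripts, -1.23 from reads and -1.83 with shortest transcripts, up over wupA -0.39 and -0.84, and the TpnC4 share 73.4% and 74.4%. The cause of the other changes was not tested. TpnC47D and TpnC73F, at 4 to 112 reads, are limited by depth. Over all genes, the alternatives moved 16 counts past the cut-offs by over 1.5 times and 34 by less: 375 genes (285 to 2759) between genotypes at day 2, 1671 (911 to 5070) at day 14 and 455 (310 to 3000) at day 38, and for day 14 against day 2, 1789 (980 to 4611) in yki and 1001 (754 to 4223) in control thoraces.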
